A study of Homo sapiens with 12 samples.

Results

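HERVP71A, HERV-Fc1, HUERS-P3b and LTR23-int are models of the internal part of class I endogenous retroviruses, the stretch between the long terminal repeats (LTRs). They were picked by name from 2 count tables, 1 per day, and make up 4 of the 45 repeat elements listed there and 8 of the 90 combinations of element and strand. HERV3, which belongs to the same class, was left out of the group. The 4 elements hold 13877 of the 497746 counts of the 12 libraries, or 2.79%. The libraries are stranded total RNA from THP-1, a monocytic cell line established from a human acute myeloid leukaemia. One group of 3 libraries carried SETDB1 sgRNA 9 and was collected at day 4, against 3 libraries with a non-targeting sgRNA at day 4. Another 3 carried SETDB1 sgRNA 9 to day 7, against 3 with the non-targeting sgRNA at day 7. Below, these are the SETDB1 arm and the control arm. Every group was spin-transduced and put under puromycin at 1 µg/ml from 48 h on. The labels name neither the source of the nuclease nor clones, and the series' design text lists SETDB1 sgRNAs 6 and 9 where the titles give sgRNA 9 alone, so groups follow the titles. The tables list repeat elements and no genes, so the level of SETDB1 in each library was not analysed here.

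Endogenous retroviruses are remnants of retroviral infections of the germ line. An intact copy carries gag, pro, pol and env between a pair of LTRs, and transcription starts in the 5′ LTR. Class I elements resemble gammaretroviruses. Families are often named by the tRNA that primes reverse transcription, proline for the letter P in HERVP71A and HUERS-P3b and phenylalanine for the F in HERV-Fc1, whereas LTR23-int takes its name from the LTR that flanks it. SETDB1 deposits methylation on lysine 9 of histone H3 and is brought to many retroviral copies by KRAB zinc finger proteins and TRIM28, where the mark represses transcription. The study asks whether repeats are transcribed from both strands once SETDB1 is depleted.

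Table totals ran between 27388 and 58916 counts per library. They averaged 50619 ± 7207 in the SETDB1 arm and 30587 ± 4110 in the control arm at day 4, and 49914 ± 9993 in the SETDB1 arm and 34796 ± 7531 in the control arm at day 7 (SD, n = 3 each). The sources used here do not give the full depth of a library. Levels are therefore given both as counts and as CPM, counts rescaled to a common table total after TMM scaling, and a fold change on the CPM scale is relative to the other repeats. Across all 70 features with enough counts to be tested, the median log2 change on that scale was 0.04 at day 4 and 0.16 at day 7. Without scaling it was 0.65 and 0.76, so a feature near those values rose no more than the middle of the table. In bulk RNA, fewer cells that express an element and less of its RNA per cell cannot be told apart. Whether replicates were separate cultures is not stated, and p-values then cover only the spread between these libraries. No model lengths are given, so levels are not compared between elements.

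HERVP71A was read almost wholly from the minus strand, and its raw counts there were higher in every SETDB1 library than in any control library of the same day. The table totals separated likewise at day 4, at 45911 to 58916 in the SETDB1 arm and 27705 to 35293 in the control arm. How many of all features separate in raw counts was not worked out. At day 4 the minus strand had 365, 396 and 387 counts in the SETDB1 arm, against 276, 232 and 252 in the control arm. At day 7 it had 615, 699 and 695 counts in the SETDB1 arm, against 395, 411 and 261 in the control arm. The ratio of the element's means over both strands was 1.53 at day 4 and 1.88 at day 7, beside ratios of the table totals of 1.65 and 1.43. Relative to the table, HERVP71A minus strand stood at 7975 ± 1261 CPM in the SETDB1 arm and 8014 ± 455 CPM in the control arm at day 4 (SD, n = 3 each), a log2 change of -0.01 ± 0.14 (SE; adjusted p = 0.961, edgeR's quasi-likelihood test with Benjamini-Hochberg adjustment). At day 7 it stood at 13284 ± 1758 CPM in the SETDB1 arm and 10515 ± 1450 CPM in the control arm (SD, n = 3 each), and rose by 0.33 ± 0.14 on the log2 scale (SE; edgeR adjusted p = 0.0396), although the libraries of the arms overlapped. That call was lost with the day 7 libraries alone (0.11), no filter (0.16), DESeq2 size factors (0.25), DESeq2 (0.25) and without L1P1_orf2, a LINE-1 row (0.31), and the strands summed gave 0.17 (edgeR adjusted p = 0.304). The day 7 median over all features, 0.16 in the main fit, was lower in each of these settings. It was -0.06, 0.03, 0.07, 0.08, 0.13 and 0.05 in that order. With table totals the median was 0.25 and the call held (0.41). The call was also lost on leaving out any 1 of 6 libraries. These were replicates 1 (0.24), 2 (0.36) and 3 (0.35) of the SETDB1 arm at day 7, replicates 1 (0.31) and 3 (0.26) of the control arm at day 7 and replicate 2 of the control arm at day 4 (0.23). In unscaled counts the changes were 0.59 ± 0.23 at day 4 and 0.91 ± 0.22 at day 7 (log2, SE; edgeR adjusted p = 0.0206 and 0.000171). The plus strand held 3 to 23 counts per library, and its log2 changes of 0.73 ± 0.47 at day 4 and 0.10 ± 0.46 at day 7 did not pass (SE; edgeR adjusted p = 0.311 and 0.867). Without 1 library the day 4 change ran between 0.32 (replicate 1 of the SETDB1 arm at day 4 left out) and 1.00 (replicate 1 of the control arm at day 4 left out). The day 4 plus strand counts were 23, 10 and 13 in the SETDB1 arm, against 9, 6 and 3 in the control arm. Unscaled, the plus strand changed by 1.34 ± 0.53 at day 4, which passed, and 0.72 ± 0.52 at day 7, which did not (log2, SE; edgeR adjusted p = 0.0263 and 0.23).

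**Figure D1:**
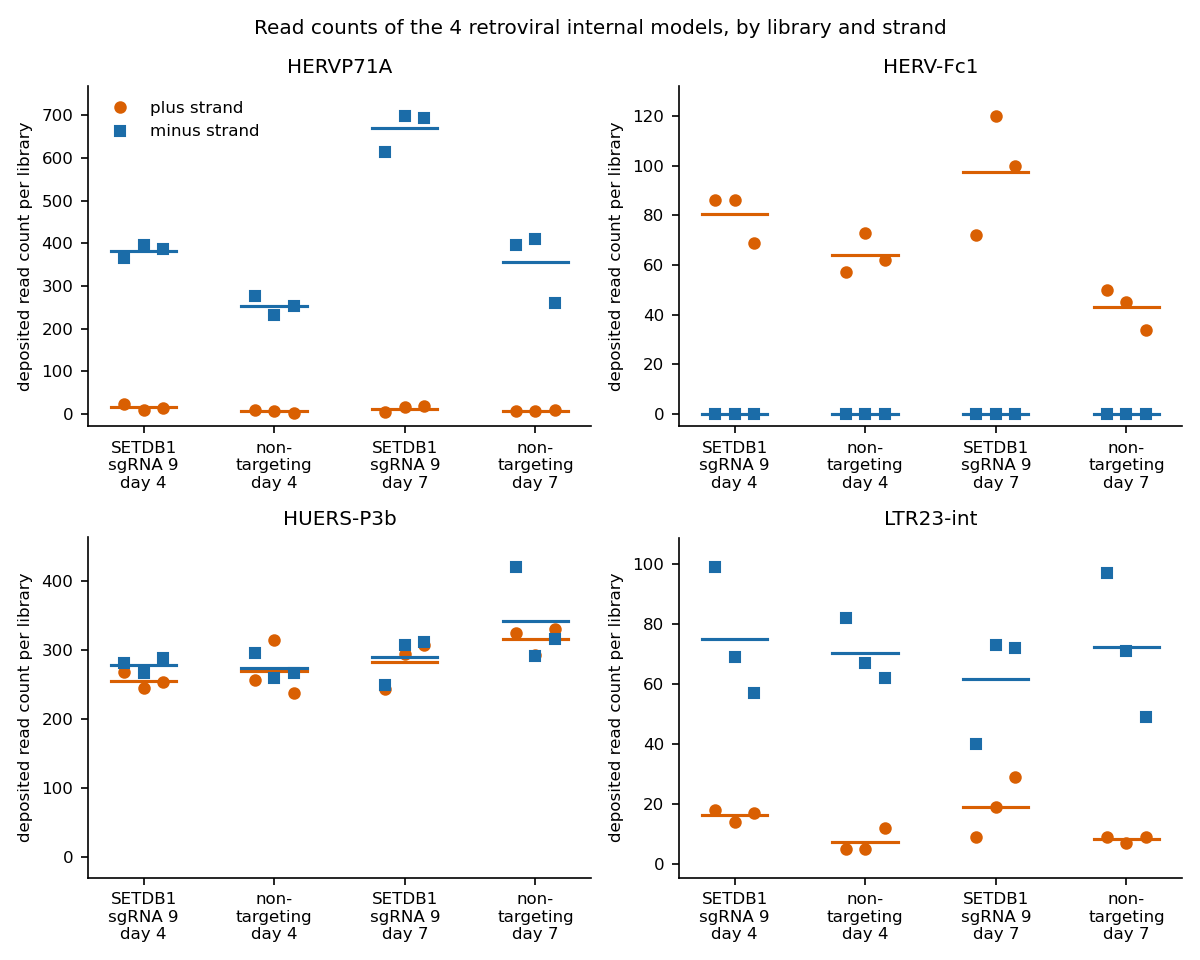
Deposited read counts per library (y axis) of the 4 elements in the 4 groups (x axis), with circles for the plus strand, squares for the minus strand and lines for the mean of 3 libraries. HERVP71A minus strand lies between 615 and 699 in the SETDB1 arm at day 7 and between 261 and 411 in the control arm, while both strands of HUERS-P3b overlap between the arms at each day.

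HERV-Fc1 was read from the plus strand alone and was higher in the SETDB1 arm at day 7. Its plus strand had 72, 120 and 100 counts in the SETDB1 arm at day 7, against 50, 45 and 34 in the control arm, so that the arms did not overlap. At day 4 it had 86, 86 and 69 counts in the SETDB1 arm, against 57, 73 and 62 in the control arm, and the arms overlapped. In CPM it averaged 1884 ± 117 in the SETDB1 arm and 1273 ± 61.0 in the control arm at day 7 (SD, n = 3 each), 1.48-fold higher, or 0.57 ± 0.20 on the log2 scale (SE; edgeR adjusted p = 0.0139). At day 4 the averages were 1686 ± 398 CPM in the SETDB1 arm and 2040 ± 372 CPM in the control arm (SD, n = 3 each), and the log2 change of -0.28 ± 0.19 did not pass (SE; edgeR adjusted p = 0.321). That value was -0.10 without replicate 3 of the SETDB1 arm and -0.48 without replicate 1 of the control arm at day 4. The unscaled change at day 4 had the other sign (0.33 ± 0.25, edgeR adjusted p = 0.257), while at day 7 it was 1.18 ± 0.26 (log2, SE; edgeR adjusted p = 4.22e-05). The day 7 call was lost with DESeq2 (0.48), with the day 7 libraries alone (0.35), with no filter (0.39), in a table with strands summed (0.40, edgeR adjusted p = 0.114), and on leaving out replicate 2 of the SETDB1 arm at day 7 (0.44), replicate 3 of the control arm at day 7 (0.54) or replicate 2 of the control arm at day 4 (0.44). With DESeq2, the day 7 libraries alone, no filter and strands summed, the median over all features was also lower than in the main fit, as given for HERVP71A.

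HUERS-P3b was read about equally from both strands, and its counts overlapped between the arms on each strand and day, although the tables as a whole held more counts in the SETDB1 arm. At day 4 its plus strand had 268, 245 and 253 counts in the SETDB1 arm, against 257, 314 and 238 in the control arm, while its minus strand had 281, 266 and 289 in the SETDB1 arm, against 295, 260 and 266 in the control arm. At day 7 the plus strand had 244, 294 and 308 counts in the SETDB1 arm, against 325, 293 and 330 in the control arm, while the minus strand had 249, 308 and 312 in the SETDB1 arm, against 421, 291 and 316 in the control arm. Control replicate 1 was the highest minus strand library of day 7. Summed over the strands, HUERS-P3b counts averaged 534 ± 20.2 in the SETDB1 arm and 543 ± 35.8 in the control arm at day 4, and 572 ± 68.7 in the SETDB1 arm and 659 ± 81.7 in the control arm at day 7 (SD, n = 3 each).

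Relative to the other repeats HUERS-P3b fell, and on this scale every SETDB1 library lay below every control library on both strands at both days. The plus strand averaged 5304 ± 623 CPM in the SETDB1 arm and 8567 ± 1497 CPM in the control arm at day 4, and 5564 ± 573 CPM in the SETDB1 arm and 9571 ± 1853 CPM in the control arm at day 7 (SD, n = 3 each). The minus strand averaged 5778 ± 528 CPM in the SETDB1 arm and 8659 ± 261 CPM in the control arm at day 4, and 5708 ± 505 CPM in the SETDB1 arm and 10211 ± 1434 CPM in the control arm at day 7 (SD, n = 3 each). The log2 changes were -0.69 ± 0.15 on the plus and -0.59 ± 0.14 on the minus strand at day 4 (SE; edgeR adjusted p = 0.000703 and 0.00131), and -0.78 ± 0.15 and -0.84 ± 0.14 at day 7 (SE; edgeR adjusted p = 6.83e-05 and 4.21e-06). All 4 calls held without any single library, with DESeq2, with other size factors and with the libraries of 1 day alone. They rest on scaling to the table: in unscaled counts the changes were -0.08 ± 0.22 and 0.03 ± 0.22 at day 4 and -0.16 ± 0.22 and -0.24 ± 0.22 at day 7 (log2, SE), with edgeR adjusted p between 0.343 and 0.933.

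LTR23-int fell on its minus strand at day 7 relative to the other repeats, while neither day's change passed on its plus strand. The minus strand, with most of the counts, had 99, 69 and 57 counts in the SETDB1 arm at day 4, against 82, 67 and 62 in the control arm. At day 7 it had 40, 73 and 72 counts in the SETDB1 arm, against 97, 71 and 49 in the control arm. The arms overlapped at both days. In CPM the minus strand averaged 1567 ± 496 in the SETDB1 arm and 2215 ± 142 in the control arm at day 4, and 1184 ± 182 in the SETDB1 arm and 2110 ± 382 in the control arm at day 7 (SD, n = 3 each), and on this scale the arms did not overlap at either day. Its log2 change of -0.51 ± 0.20 at day 4 did not pass (SE; edgeR adjusted p = 0.0616), and the day 7 change was -0.83 ± 0.21 (log2, SE; edgeR adjusted p = 0.00119). The day 4 change passed without replicate 1 of the SETDB1 arm at day 4 (-0.75, edgeR adjusted p = 0.00537), the library with 99 counts, or replicate 1 of the SETDB1 arm at day 7 (-0.53, edgeR adjusted p = 0.0308). It passed also with table totals (-0.61) and with no filter (-0.55). Without replicate 3 of the SETDB1 arm at day 4, the library with 57 counts, it shrank to -0.27 (edgeR adjusted p = 0.421). Unscaled, the minus strand changed by 0.09 ± 0.25 at day 4 and -0.23 ± 0.26 at day 7 (log2, SE; edgeR adjusted p = 0.756 and 0.448).

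The plus strand of LTR23-int had 18, 14 and 17 counts in the SETDB1 arm at day 4, against 5, 5 and 12 in the control arm. At day 7 it had 9, 19 and 29 counts in the SETDB1 arm, against 9, 7 and 9 in the control arm. No SETDB1 library lay below a control one, but the lowest SETDB1 library at day 7 tied with 2 control libraries at 9. Relative to the table the log2 changes of 0.53 ± 0.43 and 0.57 ± 0.40 did not pass (SE; edgeR adjusted p = 0.425 and 0.248). Single libraries moved them widely: the day 4 change was 0.19 without replicate 1 and 1.08 without replicate 3 of the control arm at day 4, and the day 7 change was 0.16 without replicate 3 of the SETDB1 arm at day 7. Unscaled they were 1.14 ± 0.49 and 1.18 ± 0.46 (log2, SE), which passed (edgeR adjusted p = 0.0421 and 0.0239).

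**Figure D2:**
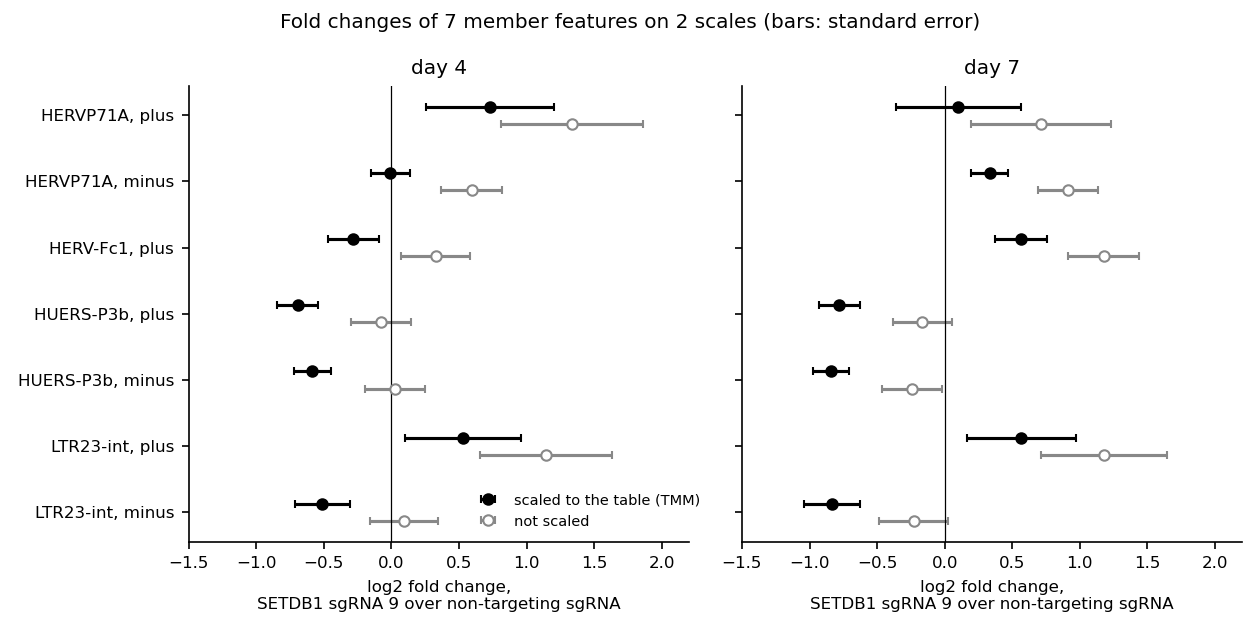
Log2 fold changes of SETDB1 sgRNA 9 over the non-targeting sgRNA (x axis, bars are standard errors) for the 7 tested combinations of element and strand (y axis) at day 4 and day 7, scaled to the table (filled) and unscaled (open). HUERS-P3b lies between -0.84 and -0.59 when scaled and between -0.24 and 0.03 when unscaled, and HERVP71A minus strand at day 7 lies above 0 on both scales.

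Of the 8 combinations of element and strand, 7 passed the filter on low counts, and the minus strand of HERV-Fc1, at 0 in every library, did not. At day 4, 0 of these 7 were higher and 2 were lower (both strands of HUERS-P3b), while 24.3% of all 70 features were called, 15.7% higher and 8.57% lower. At day 7, 2 were higher (HERV-Fc1 plus and HERVP71A minus strand) and 3 were lower (HUERS-P3b on both strands and LTR23-int minus strand), where 55.7% of all features were called, 30% higher and 25.7% lower. The median log2 change of the 7 was -0.28 at day 4 and 0.10 at day 7, beside 0.04 and 0.16 over all features. The arms did not overlap in CPM for 3 of the 7 at day 4 and 4 at day 7, where this held for 25.7% and 55.7% of all features. The split of calls depended on the scale. Unscaled counts gave 3 higher and 0 lower at day 4 (both strands of HERVP71A and LTR23-int plus strand) and 3 higher and 0 lower at day 7 (HERVP71A minus, HERV-Fc1 and LTR23-int plus strands). On that scale 35 of all 70 features were higher and 0 lower at day 4, and 37 higher and 1 lower at day 7. DESeq2 gave 0 higher and 3 lower at day 7, where it had 14 higher and 19 lower of all 70. The same 0 and 3 came from edgeR with no filter (11 higher and 18 lower of all 85) and on the day 7 libraries alone (11 higher and 20 lower of all 67).

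Together the 4 elements had 1104 ± 31.5 counts per library in the SETDB1 arm and 944 ± 44.4 in the control arm at day 4, a ratio of 1.17, while their share of the table was 2.21% ± 0.32 in the SETDB1 arm and 3.11% ± 0.29 in the control arm (SD, n = 3 each). At day 7 the sums were 1432 ± 172 in the SETDB1 arm and 1146 ± 149 in the control arm, a ratio of 1.25, and the shares 2.90% ± 0.27 in the SETDB1 arm and 3.34% ± 0.31 in the control arm (SD, n = 3 each). The other internal models of the tables, HERV3 of class I, HERVK of class II and HERVL18 of class III, had 5 tested features. Of these, 1 was higher at day 4 and 4 at day 7, with 0 lower at either day, and their median log2 change was 0.10 at day 4 and 0.84 at day 7. The lists were chosen with results of these data known, so the contrast between them is a description.

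Between day 4 and day 7, HERVP71A minus strand rose in the SETDB1 arm and HERV-Fc1 fell in the control arm. Each day has its own table, so within an arm time cannot be told apart from any difference in how the days were handled. HERVP71A minus strand was higher at day 7 than at day 4 by 0.74 ± 0.14 on the log2 scale in the SETDB1 arm (SE; edgeR adjusted p = 8.09e-05), with no overlap between the days. It was 1 call among the 7 tested features there, where 11.4% of all features were higher. In the control arm its change was 0.39 ± 0.14 and did not pass (log2, SE; edgeR adjusted p = 0.127), although it did under 3 of 7 other settings, and the difference between these changes, 0.34 ± 0.20, did not pass either (edgeR adjusted p = 0.278). The days of the control arm did not overlap for HERVP71A minus strand either. Among all features the days did not overlap for 34.3% in the SETDB1 arm and 18.6% in the control arm. HERV-Fc1 plus strand changed by -0.67 ± 0.20 at day 7 against day 4 in the control arm (log2, SE; edgeR adjusted p = 0.0422), where 2.86% of all features were lower, and moved by 0.18 ± 0.18 in the SETDB1 arm (edgeR adjusted p = 0.529). The fall was lost in unscaled counts (-0.57), with DESeq2 size factors (-0.62), without L1P1_orf2 (-0.58), with no filter (-0.53), with strands summed (-0.77) and without replicate 2 (-0.58) or 3 (-0.68) of the control arm at day 4 or replicate 1 (-0.68), 2 (-0.73) or 3 (-0.67) of the control arm at day 7. The log2 change of HERV-Fc1 between the arms was -0.28 at day 4 and 0.57 at day 7. The difference between these changes, 0.85 ± 0.27 (log2, SE), was close to the threshold but not past it (edgeR adjusted p = 0.0509, unadjusted p = 0.00363). It passed when libraries were scaled by table totals (1.04, edgeR adjusted p = 0.0186). It also passed without replicate 1 (0.89) or 2 (1.00) of the SETDB1 arm at day 4, replicate 1 of the control arm at day 4 (1.06) or replicate 1 of the SETDB1 arm at day 7 (0.91). It shrank to 0.58 without replicate 2 of the control arm at day 4, 0.66 without replicate 3 of the SETDB1 arm at day 4 and 0.72 without replicate 2 of the SETDB1 arm at day 7 (edgeR adjusted p = 0.251, 0.167 and 0.238). None of the 7 features passed that test of the difference between days in edgeR, with 1 at an unadjusted p under 0.05, and 5.71% of all features passed it.

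In CPM the order of the groups differed between elements. HERVP71A minus strand was highest in the SETDB1 arm at day 7 (11698 to 15174 CPM), which overlapped the control day 7 libraries (9258 to 12100 CPM). The SETDB1 arm day 4 libraries (7056 to 9412 CPM) and the control day 4 libraries (7581 to 8488 CPM) overlapped and had the lowest means, and the highest SETDB1 arm library of day 4 lay above the lowest control library of day 7. HERV-Fc1 had its lowest mean in the control arm at day 7 (1206 to 1325 CPM), which overlapped the SETDB1 arm at day 4 (1258 to 2044 CPM) and no other group. The SETDB1 arm at day 7 lay between 1776 and 2008 CPM and the control arm at day 4 between 1646 and 2385 CPM. For HUERS-P3b the 6 SETDB1 libraries of both days lay between 4613 and 6020 CPM on the plus strand and between 5155 and 6322 CPM on the minus strand. The 6 control libraries lay between 7423 and 11706 CPM on the plus strand and between 8496 and 11209 CPM on the minus strand, so that the days overlapped within each arm. LTR23-int minus strand had the SETDB1 arm day 7 libraries (987 to 1345 CPM) and day 4 libraries (1039 to 2023 CPM) below the control day 7 (1738 to 2501 CPM) and day 4 libraries (2088 to 2369 CPM), with overlap between neighbours.

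The 4 elements differed in how their counts fell on the strands, with HERV-Fc1 on the plus strand alone, HUERS-P3b near an even split and HERVP71A and LTR23-int mostly on the minus strand. The lowest HERVP71A library (94.1%, replicate 1 of the SETDB1 arm at day 4) lay just below the highest LTR23-int library (94.3%, replicate 1 of the control arm at day 4). HERV-Fc1 had 0 minus strand counts of 241 in the SETDB1 arm and 0 of 192 in the control arm at day 4, which allows a minus strand share of up to 1.24% in the SETDB1 arm and 1.56% in the control arm. At day 7 it had 0 of 292 in the SETDB1 arm and 0 of 129 in the control arm, which allows up to 1.03% in the SETDB1 arm and 2.33% in the control arm. These limits, set at 3 counts, cover counting error only. HERVP71A was at the other end, with a minus strand share of 96.1% ± 1.8 in the SETDB1 arm and 97.7% ± 1.0 in the control arm at day 4, and 98.2% ± 1.0 in the SETDB1 arm and 97.8% ± 0.9 in the control arm at day 7 (SD, n = 3 each). HUERS-P3b was split, at 52.2% ± 1.1 in the SETDB1 arm and 50.5% ± 4.5 in the control arm at day 4, and 50.7% ± 0.4 in the SETDB1 arm and 51.7% ± 4.1 in the control arm at day 7 (SD, n = 3 each). Which strand is sense to an element is not stated, and a table row may sum copies that lie in both orientations.

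LTR23-int had a lower minus strand share in the SETDB1 arm. At day 7 the share was 81.6%, 79.3% and 71.3% in the SETDB1 arm, against 91.5%, 91.0% and 84.5% in the control arm, and the arms did not overlap. No scaling between libraries enters such a share. It fell by a log2 odds change of -1.39 ± 0.43 (SE; edgeR test with a block for each library, adjusted p = 0.00767 over 39 elements). At day 4 the shares were 84.6%, 83.1% and 77.0% in the SETDB1 arm, against 94.3%, 93.1% and 83.8% in the control arm, and the arms overlapped by 1 library on each side. The day 4 change of -1.06 ± 0.45 did not pass (log2 odds, SE; edgeR adjusted p = 0.101). Over the 39 elements the median change was -0.25 at day 4 and -0.42 at day 7, and 33.3% of them were called at day 7, so LTR23-int was 1 of 13. Of these 13, 10 were lower and 3 higher. The 39 include HERV-Fc1, although its minus strand was at 0 and gives no estimate. The day 7 call was lost with limma on the log2 strand ratio (-1.23, adjusted p = 0.056) and on leaving out replicate 3 of the SETDB1 arm (-1.09) or replicate 1 of the control arm (-1.18) at day 7. The day 4 change passed without replicate 3 of the control arm at day 4 (-1.69). It passed also in limma with a block for the replicate number (-1.15, limma adjusted p = 0.00715), although the labels state no such pairing. It shrank to -0.73 without replicate 1 of the control arm and to -0.86 without replicate 3 of the SETDB1 arm at day 4 (edgeR adjusted p = 0.367 and 0.313). HUERS-P3b changed by 0.10 ± 0.17 at day 4 and -0.07 ± 0.16 at day 7 (log2 odds, SE; edgeR adjusted p = 0.768 and 0.759). For HERVP71A the changes were -0.75 ± 0.43 and 0.21 ± 0.43 (log2 odds, SE; edgeR adjusted p = 0.2 and 0.759).

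**Figure D3:**
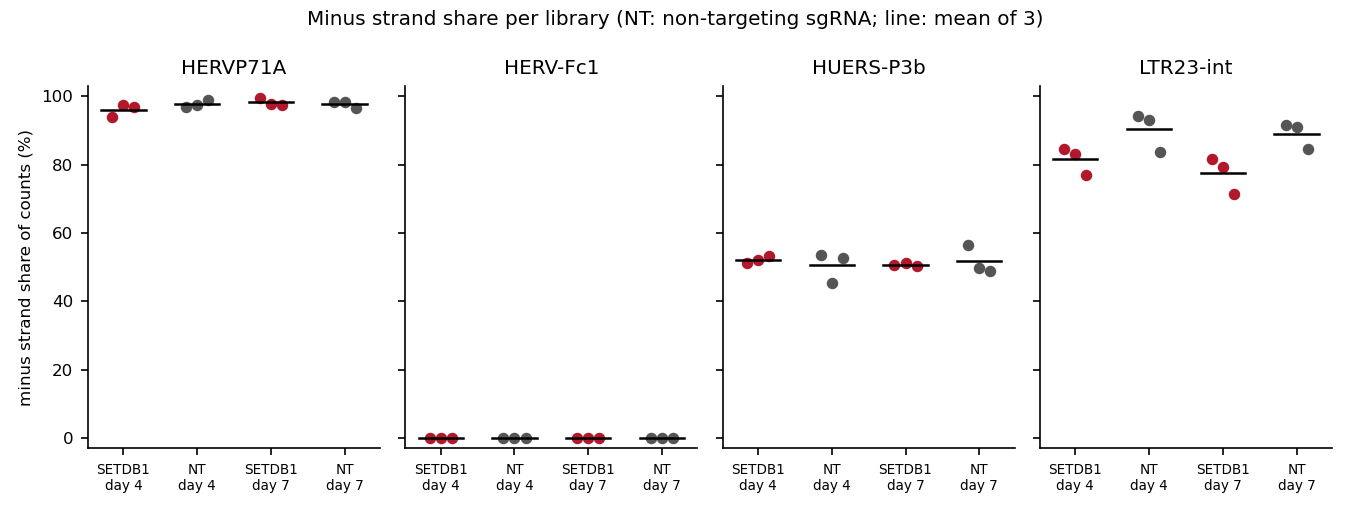
Minus strand share of counts in percent (y axis) for each library (points) and the mean of 3 (lines) in the 4 groups (x axis, NT is the control arm), with the SETDB1 arm in red and the control arm in grey. HERV-Fc1 is at 0 throughout, HUERS-P3b lies near an even split, and LTR23-int at day 7 lies between 71.3% and 81.6% in the SETDB1 arm and between 84.5% and 91.5% in the control arm.

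Ratios of counts between elements within a library also need no scaling. Averaged over the days, HERVP71A and HERV-Fc1 each rose relative to HUERS-P3b and to LTR23-int, while the ratio of HERVP71A to HERV-Fc1 and that of HUERS-P3b to LTR23-int did not pass. This holds for the strands summed. On the plus strand alone the ratios to LTR23-int turned their sign for HERVP71A (-0.22) and HERV-Fc1 (-0.37), HERVP71A to HUERS-P3b did not pass (1.00, exact permutation p = 0.04, adjusted p = 0.0933), and HUERS-P3b to LTR23-int fell (-1.23, exact permutation p = 0.005, adjusted p = 0.0175). Counts of both strands were summed, 0.5 was added, and arms were compared by a two-sided exact permutation test that permutes libraries within each day (400 arrangements, smallest p 0.005). The 6 ratios among these elements and their 8 ratios to HERV3 and HERVK made 14 tests, over which p-values were adjusted by Benjamini-Hochberg. The tests share elements and so are not independent. The ratio of HERVP71A to HUERS-P3b was 0.707, 0.795 and 0.738 in the SETDB1 arm at day 4, against 0.517, 0.415 and 0.506 in the control arm. At day 7 it was 1.26, 1.19 and 1.15 in the SETDB1 arm, against 0.539, 0.716 and 0.418 in the control arm. It was higher in every SETDB1 library of a day than in any control one, by 0.89 on the log2 scale averaged over the days (exact permutation p = 0.005, the smallest possible, adjusted p = 0.01).

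The ratio of HERV-Fc1 to HUERS-P3b rose likewise, by 0.35 at day 4 and 1.36 at day 7 on the log2 scale (mean 0.85, exact permutation p = 0.005, adjusted p = 0.01), with no overlap between the arms at either day. At day 4 the lowest SETDB1 library (0.1281) lay barely above the highest control library (0.1279). The ratio of HERVP71A to LTR23-int was higher by 0.41 at day 4 and 0.96 at day 7 (log2 mean 0.68, exact permutation p = 0.01, adjusted p = 0.0175), and that of HERV-Fc1 to LTR23-int by 0.12 and 1.18 (log2 mean 0.65, exact permutation p = 0.03, adjusted p = 0.042). For both ratios to LTR23-int the arms overlapped at day 4 (exact permutation p = 0.2 and 0.6 at that day alone) and not at day 7. The call for HERV-Fc1 to LTR23-int was lost on leaving out any 1 of 8 libraries, with values of 0.57 to 0.68: replicates 2 and 3 of the SETDB1 arm and 1 of the control arm at day 4, and replicates 1 and 2 of the SETDB1 arm and 1, 2 and 3 of the control arm at day 7. The ratio of HERVP71A to HERV-Fc1 moved by 0.29 at day 4 and -0.22 at day 7 (log2 mean 0.04, exact permutation p = 0.83, adjusted p = 0.894). For HUERS-P3b to LTR23-int the values were -0.23 and -0.18 (log2 mean -0.21, exact permutation p = 0.24, adjusted p = 0.305). At 1 day alone 3 libraries against 3 cannot go below an exact p of 0.1.

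**Figure D4:**
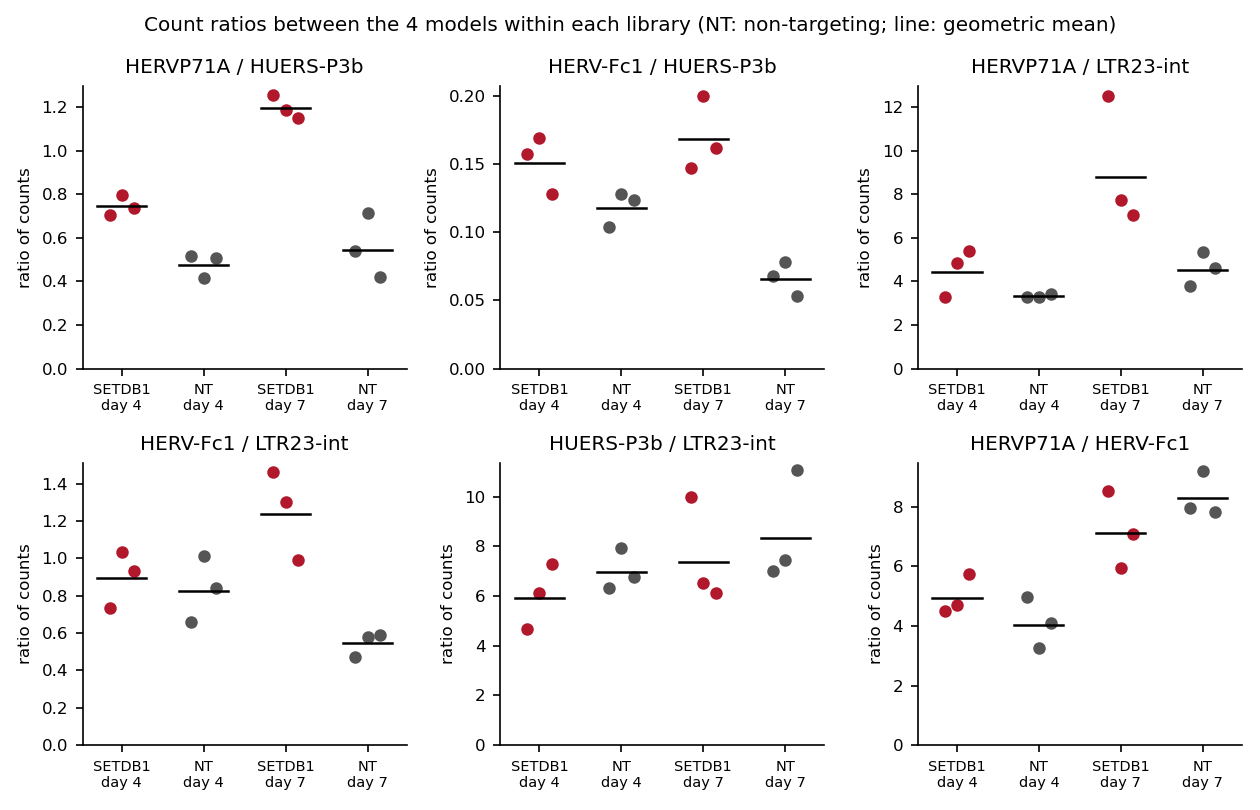
Ratio of counts between elements (y axes, strands summed) for each library (points) with the geometric mean of 3 (lines) in the 4 groups (x axes, NT is the control arm), with the SETDB1 arm in red and the control arm in grey. HERVP71A to HUERS-P3b lies between 1.15 and 1.26 in the SETDB1 arm at day 7 and between 0.418 and 0.716 in the control arm, while the arms overlap at both days for HUERS-P3b to LTR23-int and HERVP71A to HERV-Fc1.

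Set against the internal models of other families, all 4 elements fell relative to HERV3, by log2 ratio changes averaging -1.34 for HERVP71A, -1.38 for HERV-Fc1, -2.23 for HUERS-P3b and -2.03 for LTR23-int (exact permutation p = 0.005 each, adjusted p = 0.01). On the plus strand alone these ratios passed for HUERS-P3b (-1.10) and no other element. HERV3 itself rose on its minus strand by 0.84 ± 0.15 at day 4 and 2.35 ± 0.15 at day 7 (log2, SE; edgeR adjusted p = 3.31e-05 and 1.79e-15), and that rise enters all 4 ratios. Relative to HERVK, a class II retrovirus, HUERS-P3b changed by -0.90 (log2, exact permutation p = 0.005, adjusted p = 0.01) and LTR23-int by -0.69 (exact permutation p = 0.025, adjusted p = 0.0389). The LTR23-int value did not pass without replicate 2 (-0.69) or 3 (-0.58) of the SETDB1 arm at day 4, and turned its sign on the plus strand alone (0.030). HERVP71A and HERV-Fc1 moved by -0.01 and -0.04 relative to HERVK (exact permutation p = 0.975 and 0.775, adjusted p = 0.975 and 0.894).

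Over the 12 libraries, the log2 CPM of both strands of HUERS-P3b followed each other, with a Pearson correlation of 0.93, and those of LTR23-int did not (-0.36). The features of other elements most like HUERS-P3b minus strand were the minus strands of LTR26 (0.96), MSTB1 (0.94) and THE1C (0.92), all LTRs, and the same 3 led for its plus strand (0.88 to 0.91). HERVP71A minus strand was most like the minus strands of L1MA8_3end (0.79) and HERVK (0.75) and THE1C plus strand (0.73). LTR23-int minus strand was most like L1M4b_5end minus strand (0.87) and the plus strands of L1PA12_3end (0.83) and L1PA5_3end (0.77). For HERV-Fc1 the closest was the plus strand of the satellite CER at 0.59. These correlations describe 12 libraries that fall into 4 groups and share a scaling and the table total of each library.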

How the data were processed

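Stranded total RNA libraries were made from 100 ng of THP-1 RNA each, per the labels' protocols. The authors deposited counts, all whole numbers, for each strand of each repeat element, in 1 table per day. The submitters' processing notes list CASAVA 1.8, BWA and HTSeq and give no role for each. Genome build, repeat models, treatment of reads with several matches and the meaning of the plus and minus columns: not given in the sources used here. Copies of related models share sequence, so their counts could be split. Headers gave the sample of all 24 columns and none belonged to another sample.

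Element and strand together made a feature. edgeR 4.0.16 in R 4.3.3 kept 70 of 90 with filterByExpr (minimum count 10, minimum total 15), scaled table totals by TMM and fitted all 12 libraries as 4 groups, with 8 residual degrees of freedom and a biological coefficient of variation of 11.4%. Adjustment was by Benjamini-Hochberg over all 70, the threshold was 0.05, and SEs come from the F statistic. Minus strand shares were tested over 39 elements with each library as a block. Both fits were tried on simulated data, for the day 4 comparison alone. The simulated strand counts had no spread between libraries beyond sampling. That trial therefore cannot show how the strand share test behaves with the spread found here. DESeq2 1.42.0 and limma 3.58.1 served as alternatives. Ratios within libraries were tested by exact permutation in Python 3.11.15 with numpy 2.4.6. The replicates of a group differed by more than sampling noise (lowest chi-square over its degrees of freedom 1.75), so each library counted once. All 8 features of the 4 elements are named, with HERV3, HERVK and HERVL18 as the other internal models and the 3 most correlated features by the likeness rule. Between days, values are given for features with an unadjusted p under 0.05, with the other arm beside them. The elements, lists and tests were chosen with earlier results of these data known. The planned test of the summed counts is given as values only. No sequence of the 4 models was found in the files used.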

Additional observations from a re-analysis of the deposited data

How the results depend on the processing

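Among single values, 574 of 678 alternatives kept the direction and the side of the threshold, 47 lost a call, 20 gained one and 37 turned the sign. These include values that never passed and omissions of a library of the other day, which often left a value of 1 day nearly unchanged. The total is therefore no measure of stability. Leaving out 1 library moved the number of called features of the 4 elements between 3 and 5 at day 7, 1 and 2 between the days of the SETDB1 arm, and 0 and 1 in the control arm, in the difference between days and in the strand share at each day. Over all features these runs called 28 of 69 to 41 of 72 at day 7. Between the days they called 7 of 69 to 24 of 72 in the SETDB1 arm and 0 of 72 to 4 of 70 in the control arm. The difference between days had 3 of 72 to 9 of 70. For the strand share they called 3 of 41 to 7 of 39 elements at day 4 and 9 to 15 of 39 at day 7. At day 7 the count for the 4 elements was 3 with no scaling (38 of all 70 called), no filter (29 of 85), DESeq2 (33 of 70) or the libraries of 1 day alone (31 of 67). With strands summed it was 1 at day 4 and 2 at day 7 of 4 elements, beside 13 and 21 of all 42. Between the days of the control arm it was 0 with DESeq2 size factors (3 of all 70 called), no scaling (0 of 70) or strands summed (0 of 42), and 2 with DESeq2 (9 of 70). In the difference between days it was 1 with table totals (9 of all 70 called). The strand share had 0 calls at day 7 with limma without a block (10 of all 39 elements called), and the ratios had 4 on the plus strand alone against 10 of 14 on both. No such count was made over other pairs of elements, so these counts describe the chosen pairs alone. The rise of HERV3 enters every ratio to it.

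The main fits treat same-numbered libraries as unpaired, because the labels state no such pairing. Over all features, same-numbered libraries of a day did not all deviate together (correlations of -0.13 to 0.28). For the LTR23-int strand share the libraries rank alike by number in all 4 groups, and in limma the replicate block gave an SE of 0.20, against 0.43 without the block. It then passed at day 4 (-1.15, adjusted p = 0.00715) and day 7 (-1.23, adjusted p = 0.00223), 1 call each, beside 4 and 11 calls among all 39 elements. With the block the difference between days had 1 call (HERV-Fc1, 0.84, beside 5 of all 70 features), LTR23-int minus strand passed at day 4 (-0.52), and the ratio of LTR23-int to HERVK lost its call (adjusted p = 0.131).

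Unscaled, these day 4 values turned positive: HERV-Fc1 (0.33), HERVP71A minus (0.59), LTR23-int minus (0.093) and HUERS-P3b minus strand (0.026), of which the last had passed. On the plus strand alone 4 ratios that had passed turned their sign: HERVP71A (-0.22) and HERV-Fc1 (-0.37) to LTR23-int and LTR23-int to HERV3 (0.13) and HERVK (0.030). All other reversals were of values that had not passed. HERVP71A minus strand at day 4 was 0.0033 with DESeq2 size factors, 0.0036 with DESeq2 and -0.14 to 0.072 without 1 library. Its plus strand at day 7 was -0.075 with no filter, -0.033 with DESeq2, -0.12 with 1 day alone and -0.21 to 0.40 without 1 library. HERVP71A to HERVK was 0.0016 with 5 added and 0.053 on the minus strand alone. Without 1 library, strand share changes were -0.054 to 0.19 at day 4 and -0.15 to 0.075 at day 7 for HUERS-P3b and -0.17 to 0.51 at day 7 for HERVP71A, and ratios were -0.044 to 0.11 for HERVP71A to HERV-Fc1, -0.083 to 0.078 for HERVP71A to HERVK and -0.10 to 0.057 for HERV-Fc1 to HERVK. The cause was not tested. The plus strands of HERVP71A and LTR23-int, at 3 to 29 counts per library, limit what can be detected there.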
